A study of Mus musculus with 9 samples.

Results

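GABA-A receptors are chloride channels opened by GABA, the main inhibitory transmitter of the brain, and 5 genes of their subunits (Gabra2, Gabra4, Gabra5, Gabrb1 and Gabrb2) are described here together with Gad1 and Gad2, the enzymes that make GABA from glutamate. The members were all array probes annotated to these 7 genes, with no filter on missing values: 10 of 29922 probes, for 7 of 16637 genes. Receptor subunits had 7 of these probes and GABA synthesis had 3. Gabrb2 had 3 probes, Gad2 had 2 and each other gene had 1.

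A GABA-A receptor is a ring of subunits, most often with alpha and beta subunits around a gamma or delta subunit. GABA binds between an alpha and a beta subunit, and the alpha subunit largely sets where the receptor sits and how it responds to drugs. Receptors with the alpha5 subunit are abundant in hippocampal pyramidal cells and carry much of their tonic inhibition. Glutamate decarboxylase marks the inhibitory interneurons, which release GABA onto these receptors.

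Transcripts were compared in hippocampus of female mice, 2 mice in each of 4 groups and 8 in all, with RNA from 1 hippocampus per mouse, on 9 arrays that each carried 2 RNAs in the dyes Cy5 and Cy3. Wild-type (WT) mice of 3 and of 12 months were of a strain given as 129SV with C57BL6, and 3xTG mice of 3 and of 12 months of one given as B6;129Psen1tm1Mpm Tg (APPSwe,tauP201L) 1Lfa, with a mutant presenilin 1 allele in the mouse gene and mutant human APP and tau transgenes, whose neuronal expression is driven by Thy1 regulatory sequence. Each of 3 comparisons had 3 arrays: WT at 12 over 3 months, 3xTG over WT at 3 months, and 3xTG over WT at 12 months. The 2 WT mice of 3 months were the reference in the first and the second comparison. Those of 12 months were the test mice in the first and the reference in the third, so the comparisons are not separate from each other, while the 2 genotype comparisons share no mouse.

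Values are log2 ratios of test over reference RNA after subtraction of the array median, unless stated otherwise. The arrays listed 13683 to 16191 probes each, and medians before subtraction ran from -1.71 to 2.34. No listed ratio lay between -0.5 and 0.5 before subtraction, so a probe missing on an array had a small ratio or was left out for another reason, and these cannot be told apart. Had a missing value been a small ratio, it would lie between -2.84 and -0.92 on the arrays of WT ageing, between -1.46 and 1.34 at 3 months, and between 0.37 and 2.21 at 12 months on the centred scale. Ratios give no level, so the labelled tissue was not checked against levels of its markers, and levels of the subunits are not compared with each other. Probes for 13 of 14 pyramidal cell and 10 of 11 dentate granule cell marker genes were on the array. In whole hippocampus, fewer cells of a type and less RNA per cell cannot be told apart.

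Of 90 possible values the 10 probes had 52, or 57.8%, against 48.6% over all probes. Gabra5 and Gabrb1 were listed on 8 arrays each, a Gabrb2 probe on 7, and the others on 3 to 6. In 3xTG against WT mice, Gabra5, Gabrb1 and one probe of Gabrb2 lay above the array median on all 3 arrays at 3 months and on all 3 at 12 months. The other Gabrb2 probes pointed in opposite directions, and Gad1 and Gad2 were too thinly listed at 3 months for a comparison. No member passed the adjusted threshold of 0.05 in limma in any comparison, so the values below were not separated from the spread between arrays and mice across all probes tested.

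**Figure D1:**
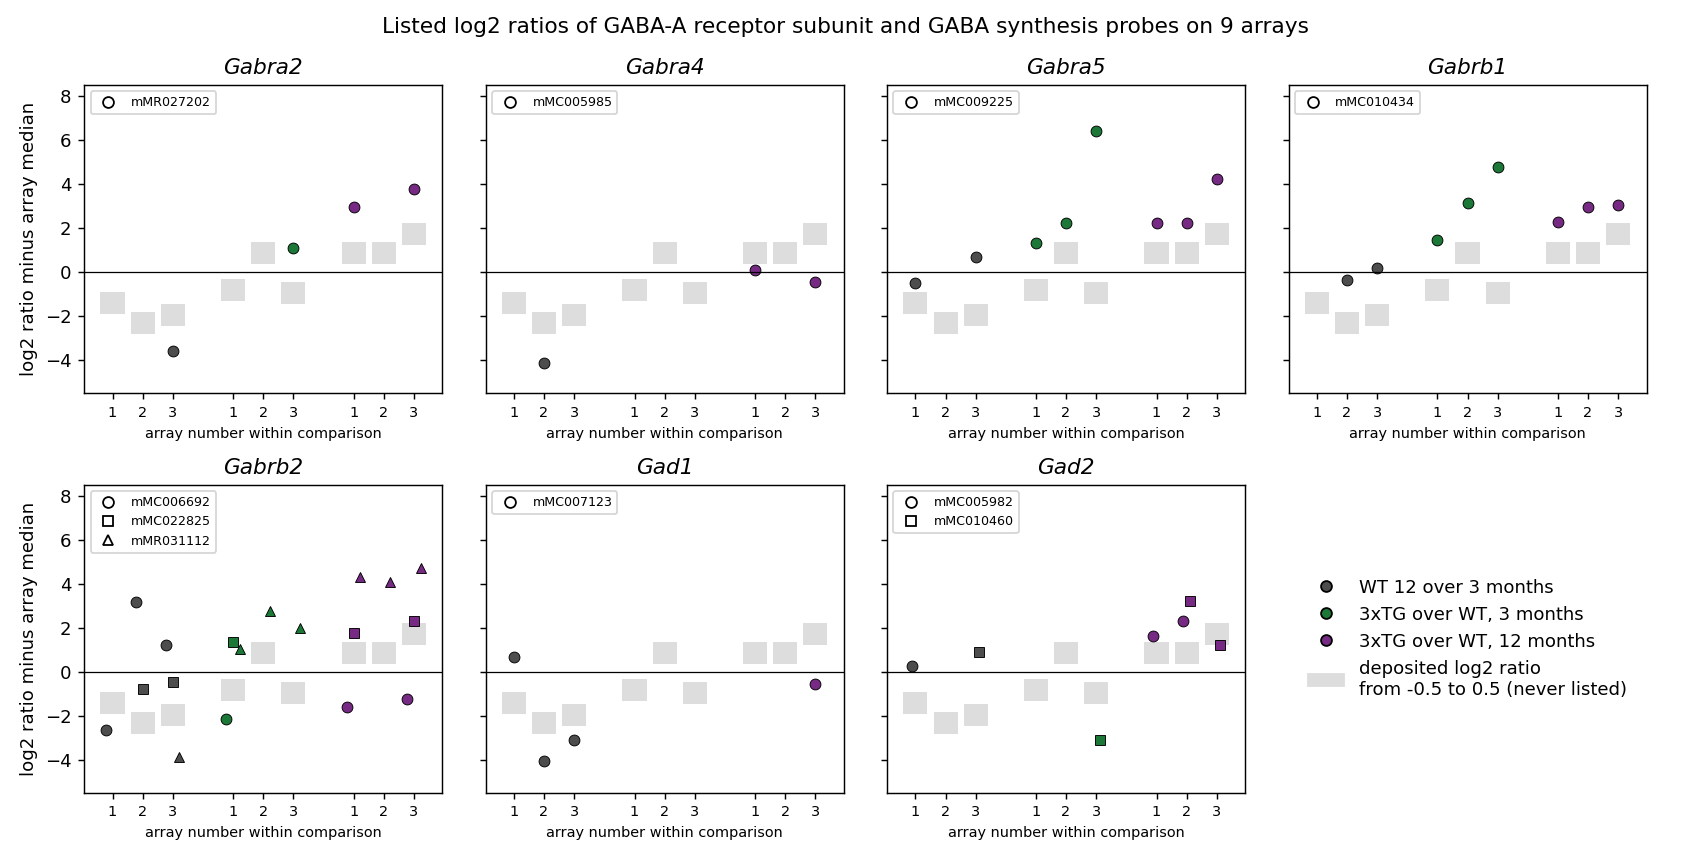
Log2 ratio minus array median (y axis) of every listed value of the 10 probes on the 9 arrays (x axis, array 1 to 3 of each comparison), by gene; symbols mark probes, colours the comparison, and grey blocks the range from -0.5 to 0.5 before subtraction, where no value is listed. Gabra5 and Gabrb1 lie above 0 on all 6 genotype arrays, and the 3 Gabrb2 probes are spread on both sides.

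The alpha5 subunit gene Gabra5 showed the largest single ratio of the set. At 3 months its ratios of 3xTG over WT were 1.32, 2.23 and 6.40 on arrays 1, 2 and 3. At 12 months they were 2.24, 2.21 and 4.23. All 6 values were above the array median, and within each age array 3, the only one with 3xTG RNA in Cy5, was the highest. Array 3 was also the only one with WT mouse 16 as reference at 3 months and with 3xTG mouse 7 at 12 months. Dye and mouse thus cannot be told apart here. The fitted log2 ratio, which allows for dye and shared mice, was 3.81 ± 1.14 (SE, n = 3 arrays, limma adjusted p = 0.759) in the younger and 3.20 ± 1.13 (SE, n = 3 arrays, limma adjusted p = 0.634) in the older mice. Without array 3 of the younger mice the value at 3 months was 2.18. At 12 months it was 2.01 without centring and 1.5 relative to abundant transcripts. Without a dye term the 2 values were 3.43 and 2.97, and the part of dye in the remaining spread was not tested.

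In WT ageing, Gabra5 was listed at -0.49 and 0.67 on arrays 1 and 3 and was missing on array 2. The 2 values lay on either side of the median, and the fitted ratio was 0.06 ± 1.26 (SE, limma adjusted p = 0.998). Before subtraction the values were 0.92 and 2.62. The fitted ratio was 1.81 without centring, where the median of all listed probes was 1.97, and 0.66 relative to abundant transcripts.

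Sequence before the gene start is shown for the 3 genes with a probe above the median on all 6 genotype arrays, Gabra5, Gabrb1 and Gabrb2. For Gabrb2 this holds for 1 of its 3 probes. Each run is the 250 bases before a start in RefSeq, build GRCm38.p6, on the strand of the gene, with motif matches in capitals. Starts were found for all 7 genes, 2 for Gabrb1 and 3 for Gabrb2, and 1 is shown for each. For Gabrb1 and Gabrb2 it is the one start with a motif match, chosen after the search, since the runs at their other starts held none. The runs lie at chr7:57510060-57510309 (minus strand) for Gabra5, chr5:71699682-71699931 (plus strand) for Gabrb1, and chr11:42420190-42420439 (plus strand) for Gabrb2.
Gabra5: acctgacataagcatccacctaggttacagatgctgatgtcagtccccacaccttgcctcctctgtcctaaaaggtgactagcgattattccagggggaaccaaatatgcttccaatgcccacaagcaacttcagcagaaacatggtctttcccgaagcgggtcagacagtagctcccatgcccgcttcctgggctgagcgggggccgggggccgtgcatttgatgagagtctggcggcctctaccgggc
Gabrb1: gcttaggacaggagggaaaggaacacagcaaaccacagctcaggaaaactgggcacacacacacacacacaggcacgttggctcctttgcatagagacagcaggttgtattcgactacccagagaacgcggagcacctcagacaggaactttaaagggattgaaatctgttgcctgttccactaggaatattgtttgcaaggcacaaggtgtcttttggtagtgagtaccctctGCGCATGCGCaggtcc
Gabrb2: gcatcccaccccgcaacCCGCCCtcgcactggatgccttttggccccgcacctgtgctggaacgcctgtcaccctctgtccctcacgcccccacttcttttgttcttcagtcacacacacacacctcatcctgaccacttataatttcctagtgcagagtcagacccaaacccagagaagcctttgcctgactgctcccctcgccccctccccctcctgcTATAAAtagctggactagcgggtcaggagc
A GC box was searched for as GGGCGG, on both strands like the other motifs. As a TATA box the run of letters taken was TATAAA. The cyclic AMP response element was TGACGTCA (1.55% of RefSeq starts held it). For an E-box the search used the letters CACGTG (6.02% of starts). The NRF1 motif is the one in capitals in the Gabrb1 run, with any base allowed after its first A. The Gabra5 run held none of these. The Gabrb1 run held the NRF1 motif, with its first base 16 bases before the start, and 3.74% of 32851 RefSeq starts held it. The Gabrb2 run held a TATA box with its first base 30 bases before the start (12.4% of starts) and a GC box (32.7% of starts). The 3 runs shared none of these motifs. A match is a description of the letters and names no acting factor.

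The alpha2 subunit gene Gabra2, whose receptors are concentrated on the axon initial segment of pyramidal cells, was listed on 4 arrays. At 12 months 3xTG over WT gave 2.95 and 3.76 on arrays 1 and 3, both above the median. At 3 months array 3 alone listed it, at 1.10. In WT ageing it was listed on array 3 only, at -3.58. These 4 values leave no residual degrees of freedom, so Gabra2 had no test.

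Gabra4 encodes the alpha4 subunit, which joins the delta subunit outside synapses, above all on dentate granule cells. It was listed on 3 arrays, at -4.14 on array 2 of WT ageing and at 0.07 and -0.45 on arrays 1 and 3 of 3xTG over WT at 12 months. Before subtraction of the array median these 2 values were -0.80 and -2.16, and relative to abundant transcripts -1.95 and -1.63, so the first one changes sign with the centring. No array listed it at 3 months, and it had no test. Of the 3 alpha subunit genes, Gabra2 and Gabra5 thus had no value below the median in the genotype comparisons and Gabra4 had values close to it.

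Gabrb1, which encodes the beta1 subunit, also lay above the median on all 6 genotype arrays. At 3 months 3xTG over WT gave 1.46, 3.11 and 4.77, and at 12 months 2.28, 2.94 and 3.04. The spread was wider at 3 months (3.11 ± 1.66, mean and SD) than at 12 months (2.75 ± 0.41). Array 3 was again the highest at each age. The fitted ratios were 3.24 ± 1.02 (SE, n = 3 arrays, limma adjusted p = 0.759) and 2.91 ± 1.01 (SE, n = 3 arrays, limma adjusted p = 0.634), the latter being 1.75 without centring and 1.25 relative to abundant transcripts. Gabrb1 in WT ageing was listed at -0.38 and 0.16 on arrays 2 and 3, on either side of the median, with a fitted ratio of 0.30 ± 1.43 (SE, limma adjusted p = 0.996). This ratio was 2.32 without centring and 1.40 relative to abundant transcripts.

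In RefSeq the Gabra4 and Gabrb1 genes overlap at their starts and run away from each other, and Gabra2 lies on the other side of Gabra4, with Cox7b2 between them and Gabrg1 beyond it. At 12 months the mean ratios on the arrays that listed them were 3.36 for Gabra2, -0.19 for Gabra4, 2.75 for Gabrb1 and -0.27 for Gabrg1, the last from 1 array. No test was made of the differences between these genes.

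Gabrb2 encodes the beta2 subunit, a partner of alpha1 in the most widespread receptor of the brain, and its 3 probes disagreed. Probe mMR031112 had ratios of 3xTG over WT of 1.01, 2.76 and 1.99 at 3 months and of 4.32, 4.06 and 4.70 at 12 months. The 2 sets did not overlap, each value at 12 months being above each at 3 months. The share of all probes whose values separate in this way was not computed, so this is a description only. Fitted values were 1.76 ± 1.04 (SE, n = 3 arrays, limma adjusted p = 0.771) in the younger and 4.38 ± 1.04 (SE, n = 3 arrays, limma adjusted p = 0.634) in the older mice, the latter being the highest of the tested member ratios on this reading and centring. Without centring it was 3.20 and relative to abundant transcripts 2.73. Before subtraction of the array median the sets were 1.85, 1.92 and 2.96 against 3.45, 3.19 and 2.99, so the distance between the ages narrows without centring. The difference between ages was 2.62 ± 1.46 (SE, limma adjusted p = 0.989). It was 0.86 without centring and -0.31 with the ratios read as Cy5 over Cy3, so its size and sign rest on these choices. In WT ageing the probe was listed on array 3 only, at -3.88.

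Probe mMC022825 of Gabrb2 was listed at 1.35 on array 1 at 3 months and at 1.77 and 2.32 on arrays 1 and 3 at 12 months, all above the median. Relative to abundant transcripts the value of array 1 at 12 months was -0.25, so that its direction depends on the centring. The fitted ratios, on 1 residual degree of freedom before moderation, were 1.62 ± 1.89 (SE, limma adjusted p = 0.875) and 1.96 ± 1.25 (SE, limma adjusted p = 0.705), and the latter was 0.77 without centring and 0.29 relative to abundant transcripts. In WT ageing it was at -0.77 and -0.45 on arrays 2 and 3, which were 1.56 and 1.5 before subtraction.

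Probe mMC006692 of Gabrb2 lay on the other side in the genotype comparisons. It was at -2.16 on array 1 at 3 months and at -1.61 and -1.26 on arrays 1 and 3 at 12 months, all below the median. Its fitted ratios were -2.59 ± 2.31 (SE, limma adjusted p = 0.838) and -0.80 ± 1.55 (SE, limma adjusted p = 0.909), and the latter was -2.03 without centring and -2.53 relative to abundant transcripts. WT ageing gave -2.64, 3.15 and 1.21 on its 3 arrays, a spread of 2.95 (SD) with both signs. Array 1 was the one below the median, and the only one with the test RNA in Cy5 and WT mouse 15 as reference. Where in the Gabrb2 transcripts the 3 probes lie was not analysed here, so no direction is given for the gene.

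**Figure D2:**
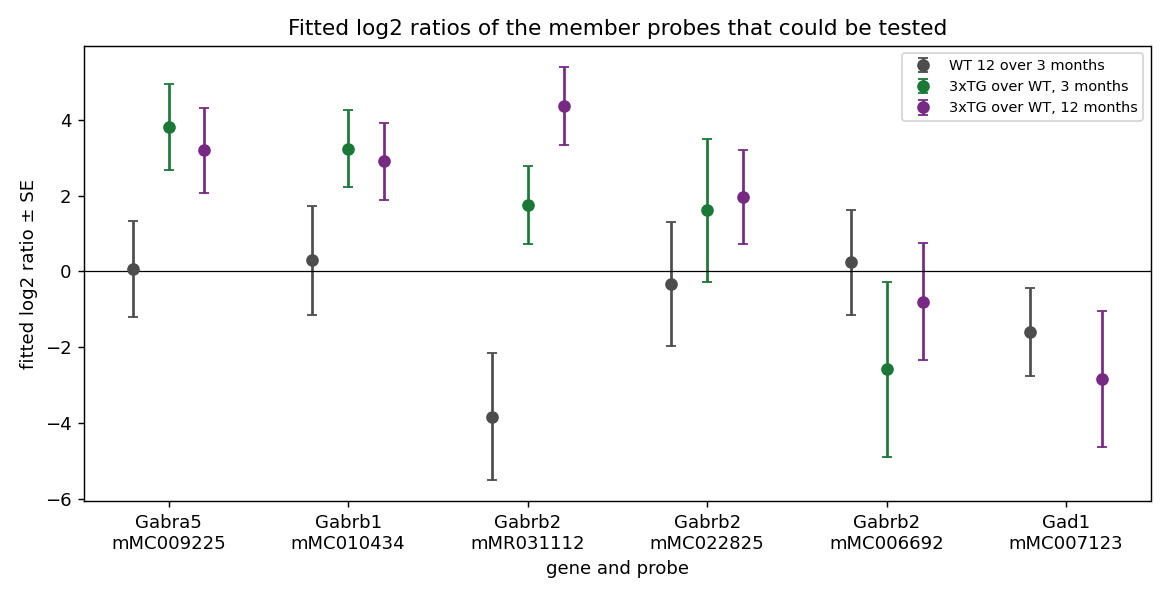
Fitted log2 ratio with its standard error (y axis) for the 6 member probes that could be tested (x axis), coloured by comparison. Gabra5, Gabrb1 and Gabrb2 mMR031112 are above 0 in both genotype comparisons, Gabrb2 mMC006692 is below 0 there, and Gad1 had no estimate at 3 months.

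Gad1 encodes the decarboxylase form that makes most of the GABA in the cell body. No array listed it at 3 months, and at 12 months only array 3 did, at -0.58. In WT ageing its 3 ratios were 0.67, -4.08 and -3.12. The 2 arrays below the median both had WT mouse 16 as reference and the test RNA in Cy3, while array 1 had mouse 15 and Cy5, so mouse and dye cannot be told apart here. The fitted ratio was -1.59 ± 1.16 (SE, n = 3 arrays, limma adjusted p = 0.924), and without centring it was 0.24. For 3xTG over WT at 12 months the fit gave -2.84 ± 1.79 (SE, limma adjusted p = 0.703) from its 1 listed array and the dye term, which lies far from the listed -0.58.

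Gad2 encodes the form held at synaptic vesicles in the terminals. Probe mMC005982 was at 0.27 on array 1 of WT ageing and at 1.6 and 2.3 on arrays 1 and 2 of 3xTG over WT at 12 months. Probe mMC010460 was at 0.90 on array 3 of WT ageing and at 3.21 and 1.19 on arrays 2 and 3 at 12 months. All 4 values of the 2 probes at 12 months were above the median, and only on array 2 did both give one. Relative to abundant transcripts mMC005982 was at -0.42 and 0.21, and the value of mMC010460 on array 3 was -0.52 before subtraction of the array median, so neither direction is settled. At 3 months a single value was listed, -3.12 for mMC010460 on array 3. Neither probe had an adjusted p in any comparison.

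The counts over the members read as follows. For WT at 12 over 3 months, 0 of 6 tested member probes had an adjusted p under 0.05 in limma, where 0.0% of 14534 probes did. At an unadjusted limma p under 0.05 it was 0 of 6, against 6.25% (909 probes). The split of these probes was 187 above 0 and 722 below, 1745 and 75 without centring, and 486 and 509 relative to abundant transcripts. Of the 2 member probes listed on all 3 arrays neither lay above the median throughout, as 16.4% of 4083 such probes did. The median over the 10 listed member probes was -0.36, with 4 above 0, against 0.05 over all listed probes, of which 51.2% were above 0. Without centring these medians were 1.61 and 1.97, and relative to abundant transcripts 0.34 and 0.63, so the sign changes with the centring.

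In the comparison of 3xTG with WT at 3 months, 0 of 5 tested member probes passed in limma after adjustment (0.0% of 14198 probes). At an unadjusted limma p under 0.05 there were 2 of 5, Gabra5 and Gabrb1, both above 0. That threshold was met by 6.51% of all probes tested (924), and by 3.79% in that direction. Without centring it was 3 of 5, with Gabrb2 mMR031112 added, and relative to abundant transcripts 2 of 5. Over all probes 538 were above 0 and 386 below at that threshold, 875 and 259 without centring, and 389 and 870 relative to abundant transcripts. On all 3 arrays 3 member probes were listed, and all 3 lay above the median throughout, as 30.9% of 3607 such probes did. The median of the 7 listed members was 1.35, with 5 above 0, against -0.08 over all listed probes, of which 47.9% were above 0. It was 2.19 against 0.21 without centring and 1.25 against -0.84 relative to abundant transcripts. With each missing value set to a ratio of 0 before subtraction, the median of all 10 was 0.02.

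For 3xTG over WT at 12 months, 0 of 6 tested member probes passed after adjustment in limma (0.0% of 14491 probes). An unadjusted limma p under 0.05 was found for 3 of 6, Gabra5, Gabrb1 and Gabrb2 mMR031112, all above 0. Over all probes tested it was found for 7.56% (1096), and for 6.02% in that direction. Without centring, and relative to abundant transcripts, only Gabrb2 mMR031112 among the 6 was left at that threshold. The split over all probes turned with the centring, from 873 above 0 and 223 below to 205 and 973 without centring and 99 and 1712 relative to abundant transcripts. Again 3 probes were listed on all 3 arrays, all above the median, as 29.7% of 3836 such probes were. The median of the 10 members was 2.12, with 7 above 0, against 0.02 over all listed probes, of which 50.5% were above 0. It was 0.99 against -1.14 without centring and 0.50 against -1.74 relative to abundant transcripts. The 3 shares above 0 over all listed probes are the background for the counts of each gene list described after them. The shares at an unadjusted limma p under 0.05 are the background for list counts at that threshold.

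The same 3 probes were listed on all 6 genotype arrays and above the median on all of them, which 44.9% of the 637 probes so listed were. Without centring they were also above 0 on all 6 arrays (41.9% of such probes), and relative to abundant transcripts likewise (25.9%). With the last setting the smallest values were 0.22 and 0.11 for Gabra5 on arrays 1 and 2 at 12 months and 0.26 for Gabrb1 on array 1. A direction shared over 6 arrays was therefore common among probes listed on all of them.

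**Figure D3:**
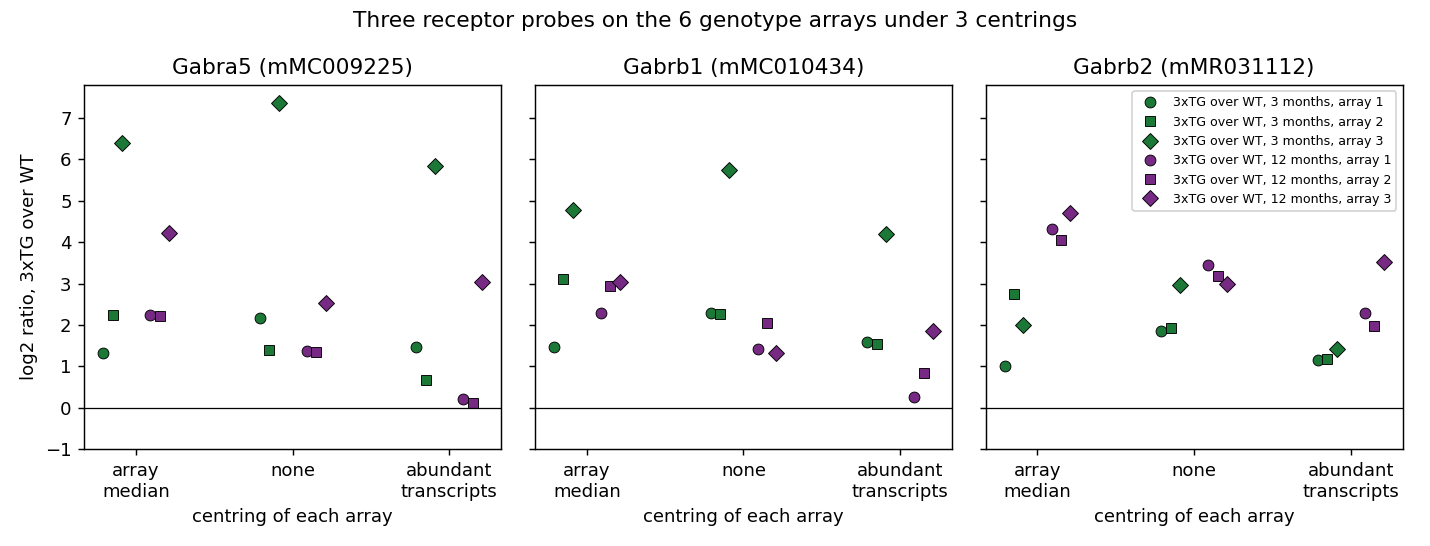
Log2 ratio of 3xTG over WT (y axis) for the 3 probes listed on all 6 genotype arrays, with each array centred on its median, not centred, or centred on abundant transcripts (x axis); symbols mark arrays and colours the age. All values lie above 0 in the 3 settings, and those of Gabra5 at 12 months come down to 0.11.

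The difference of the 3xTG over WT ratio between ages, 12 minus 3 months, could be tested for 5 member probes. It was 2.62 ± 1.46 for Gabrb2 mMR031112, as given above, and without centring it was 0.86. In the same terms Gabra5 was at -0.62 ± 1.60 (SE, limma adjusted p = 0.989) and Gabrb1 at -0.33 ± 1.42 (SE, limma adjusted p = 0.994). The Gabrb2 probes mMC022825 and mMC006692 were at 0.34 ± 2.26 (SE) and 1.79 ± 2.76 (SE). After adjustment 0 of 5 member probes passed in limma for this difference, and 0.0% of the 14654 tested did. Without adjustment 0 of 5 members passed, where 3.38% (495 probes) did. Of those probes 336 were above 0 and 159 below, against 101 and 610 without centring and 131 and 514 relative to abundant transcripts, and without centring Gabra5 was at -2.36 and Gabrb1 at -2.06.

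Gabra5 and Gabrb1 were the only members listed on at least 8 arrays, and the probes most like them over 8 shared arrays were sought as a description. For Gabra5 they were Hmgb1 (Pearson r = 0.981), Clk1 (r = 0.959) and Pgam1 (r = 0.950), out of 157 probes. Those of Gabrb1 were Itm2b (r = 0.984), Tmem9b (r = 0.975) and Sox2 (r = 0.969), out of 182. The arrays share mice, dyes and the centring, and with 8 points these coefficients are the highest of many.

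Among the 14 other GABA-A subunit genes, 10 had a probe. At 12 months 4 of 8 listed probes were above the median and 4 below, the median being -0.11 (-1.19 when not centred and -1.96 relative to abundant transcripts). At 3 months 1 of 7 was above and 6 were below, with a median of -0.57, and in WT ageing 4 of 10 were above, with a median of -0.43. None of the 4 tested in each comparison passed in limma, before or after adjustment. Gabrd, the delta subunit of extrasynaptic receptors, was at 1.94, 1.46 and 2.44 in 3xTG over WT at 12 months, with a fitted ratio of 2.08 ± 1.03 (SE, limma adjusted p = 0.638), or 0.91 without centring and 0.45 relative to abundant transcripts. Its 3 values at 3 months were -1.75, -0.38 and 1.25, on both sides of the median. Gabra3 was at -2.18 and 2.28 at 12 months.

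The metabotropic GABA-B receptor list had probes for 3 of 5 genes. Its principal subunit Gabbr1 was at -2.03, -1.46 and -1.66 in 3xTG over WT at 3 months, and was fitted at -1.76 ± 1.06 (SE, limma adjusted p = 0.773), or -1.14 without centring. At 12 months arrays 1 and 2 listed it at 3.39 and 1.41, and in WT ageing at -2.32 and -3.79. Its 3 values at 3 months were thus below the median and the 2 at 12 months above it. The fitted ratio of Gabbr1 at 12 months was 2.49 ± 1.34 (SE, limma adjusted p = 0.654). On array 2 at 12 months the abundant transcripts had a median of 2.10, above the 1.41 of Gabbr1, so its side there depends on the centring. Of the 3 probes tested in each comparison none passed after adjustment in limma. In WT ageing 2 of 3, both below 0, had an unadjusted limma p under 0.05, against 6.25% of all probes tested. The main direction of such probes turned with the centring, as given above.

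GABA transport and breakdown had probes for 9 of 12 genes, and in each comparison 0 of 3 tested probes passed in limma after adjustment. At an unadjusted limma p under 0.05 there was 1 (Slc6a13) in WT ageing and 1 (Slc6a11) at 12 months. Over all probes tested, 6.25% and 7.56% were under that threshold. Slc6a13, a GABA transporter of the brain's coverings and blood vessels, was at -3.74, -2.97 and -3.20 in WT ageing (fitted -3.35 ± 0.96, SE, limma adjusted p = 0.775, or -1.45 without centring). Slc6a11, the GABA transporter of astrocytes, was at 2.68, 2.12 and 2.88 in 3xTG over WT at 12 months (fitted 2.59 ± 1.03, SE, limma adjusted p = 0.634, or 0.94 relative to abundant transcripts). Abat, which breaks GABA down, was at 1.63 and 1.54 on the 2 arrays that listed it at 12 months. Slc32a1, which loads GABA into vesicles, was listed on 1 array of each comparison, at -3.0 in WT ageing, -3.39 at 3 months and 1.76 at 12 months. The median of the list at 12 months was 1.22, with 6 of 8 listed probes above 0, and -0.66 relative to abundant transcripts.

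Scaffold and trafficking genes of the inhibitory synapse had probes for 16 of 20 genes, and 0 of 13 or 14 tested probes passed in limma after adjustment in each comparison. Without adjustment 1 of 14 was under 0.05 in WT ageing, 1 of 13 at 3 months and 3 of 13 at 12 months. Over all probes tested these shares were 6.25%, 6.51% and 7.56%. Gabarap, a protein that binds GABA-A receptors and takes part in membrane traffic, was at 2.48, 2.67 and 3.58 in 3xTG over WT at 3 months and at 2.49, 1.83 and 4.56 at 12 months. These 6 values lay above the median, with fitted ratios of 3.12 ± 0.98 (SE, limma adjusted p = 0.759) and 3.21 ± 0.98 (SE, limma adjusted p = 0.634), the latter being 2.04 without centring and 1.57 relative to abundant transcripts. Nlgn2, the adhesion protein of inhibitory synapses, was at -2.04, -3.17 and -3.03 in WT ageing (fitted -2.59 ± 1.07, SE, limma adjusted p = 0.797, or -0.76 without centring). Also in WT ageing Slitrk3 was at 2.13 and Nsf at -0.78 in the fit, which were 3.96 and 1.06 without centring. Clptm1 was at 1.68 in the fit at 3 months. For Trak2, a kinesin adaptor, probe mMC020351 was fitted at 2.05 at 3 months and probe mMC006505 at -3.25 at 12 months (-4.90 relative to abundant transcripts). The medians of the list were -0.51 in WT ageing, 0.81 at 3 months and 0.76 at 12 months. At 12 months it was -0.53 without centring and -0.88 relative to abundant transcripts.

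Transport of chloride across the cell membrane sets the direction of the GABA-A current, but not all genes of the chloride transporter list act there. Of 6 genes 5 had a probe, and all 6 probes listed at 12 months were above the median in 3xTG over WT (list median 2.76, or 1.75 without centring and 0.84 relative to abundant transcripts). In WT ageing 4 of 5 listed probes were below it (median -3.55, -1.64 without centring, -2.95 relative to abundant transcripts). Both Clcn3 probes, for a chloride and proton exchanger of endosomes, were low on all 3 arrays of WT ageing, at -3.87, -3.53 and -3.24 for mMR026977 and at -4.51, -3.92 and -3.45 for mMC006091. In 3xTG over WT at 12 months mMR026977 was at 2.74, 2.58 and 2.39 (fitted 2.52 ± 0.89, SE, limma adjusted p = 0.634, or 1.37 without centring and 0.84 relative to abundant transcripts). Both comparisons draw on the older WT mice, as test and then as reference. At 3 months the median was 0.02, with 3 of 6 probes above it, and no probe passed in limma after adjustment in any comparison. Without adjustment 2 of 5 were under 0.05 in WT ageing, 0 of 6 at 3 months and 2 of 6 at 12 months. Over all probes tested these shares were 6.25%, 6.51% and 7.56%, and their main direction turned with the centring in each comparison.

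Markers of interneurons and of the cells that carry the receptors were set beside these results. Interneuron markers (29 of 30 genes with a probe) had a median of -0.03 in WT ageing, -0.29 at 3 months and 0.34 at 12 months, with 22 of 39 listed probes above 0 at 12 months. Without centring these medians were 1.94, -0.31 and -1.02, where those of all listed probes were 1.97, 0.21 and -1.14. At 12 months Lamp5 was at 1.54, 2.79 and 5.76 (fitted 4.12 ± 1.18, SE, limma adjusted p = 0.634, or 2.46 relative to abundant transcripts) and Htr3a at 1.67, 1.53 and 3.59 (fitted 2.58 ± 1.13, SE, limma adjusted p = 0.635, or 0.95 relative to abundant transcripts). Cck was fitted at -0.84 and Sox6 at 0.86 in WT ageing, and Kcnc2 at -0.42 at 3 months, where Cck and Kcnc2 turn above 0 without centring (0.98 and 0.25) and Sox6 comes to 2.68.

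Pyramidal cell markers lay on the same side as Gabra5 and Gabrb1 at 12 months. All 10 listed probes were above the median, with a list median of 2.41, or 1.40 without centring and 0.80 relative to abundant transcripts, and array medians of 3.18, 3.08 and 2.53. Bok was fitted at 3.52, Cpne7 at 3.22 and Neurod2 at 2.32, or at 1.87, 1.57 and 0.62 relative to abundant transcripts. At 3 months 9 of 14 probes were above, with a median of 0.64 and array medians of 0.33, 0.50 and 1.14. There Nrgn was fitted at -3.53 and Camk2a at -3.29, with Crym at 1.70. In WT ageing the median was -0.93, with Nrgn at -4.36, Fibcd1 at -4.37 and Neurod2 at -4.38, or -2.46, -2.46 and -2.54 without centring. Their part in the ratios of Gabra5, Gabrb1 and Gabrb2 was not tested, and no marker passed in limma after adjustment.

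The other cell type lists at 12 months had medians of -0.47 for dentate granule cells (4 of 13 listed probes above 0), 1.60 for astrocytes (9 of 11), 0.87 for microglia (7 of 10), 1.02 for oligodendrocytes (6 of 10), 1.77 for choroid plexus (6 of 8) and 0.16 for endothelium (3 of 6). At 3 months these were 0.68, 0.50, -0.19, 0.06, 0.70 and -1.20, and in WT ageing 0.22, -0.13, 0.13, -1.12, -0.21 and -1.79, in the same order. Without centring the medians at 12 months were -1.58, 0.45, -0.56, -0.59, 0.39 and -0.92. Relative to abundant transcripts they were -2.49, -0.16, -0.61, -0.46, -0.06 and -1.65, so all but the first change sign. The choroid plexus array medians at 12 months were -0.25, -0.30 and 2.47. At 12 months C1ql3 was fitted at 3.00, S100b at 4.38, C1qa at 1.41, Mbp at 3.03 and Ttr, of choroid plexus, at -3.50. Relative to abundant transcripts these were 1.34, 2.66, -0.23, 1.30 and -5.13. Abundant transcripts were at -0.53 in WT ageing, 0.37 at 3 months and 1.83 at 12 months, and olfactory, vomeronasal and taste receptors with keratin-associated proteins, unlikely to be expressed in hippocampus, at 0.28, -0.45 and -0.46. The median of the 7 genes at 12 months, 2.12, thus lay near that of the abundant transcripts, and at 3 months, 1.35, above it.

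**Figure D4:**
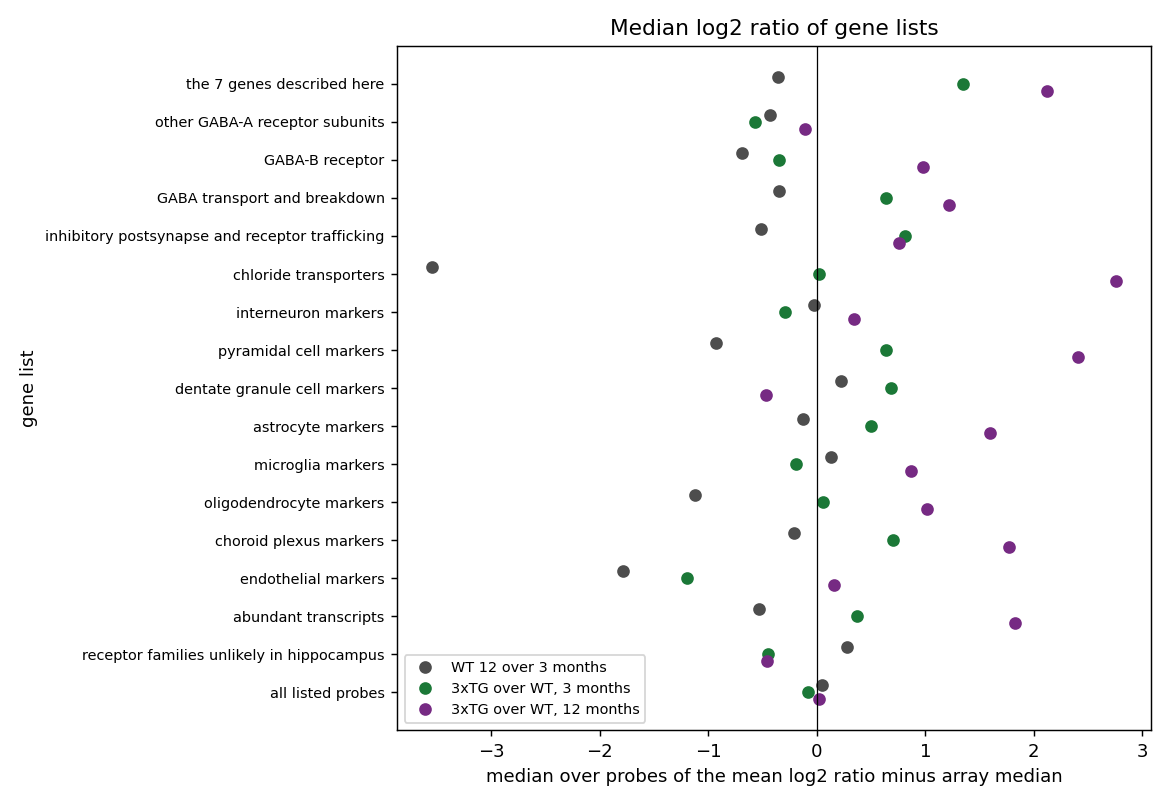
Median over the probes of each gene list (y axis) of the mean log2 ratio minus array median (x axis), coloured by comparison. The 7 genes lie at -0.36, 1.35 and 2.12, the other GABA-A subunits at -0.43, -0.57 and -0.11, and all listed probes near 0.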

How the data were processed

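The values are log2 ratios as deposited by the authors for 29922 probes on 9 arrays. Their log base was taken from their range. Scanner, filter and normalization: not given in the sources used here. Test over reference was the reading used, as the labels order the RNAs. Groups follow the titles and source names; the extraction text attached to all 9 arrays, those of 3xTG mice included, names WT mice of 12 and 3 months, so the labels conflict there. Within comparisons, arrays with swapped dyes correlated across probes at 0.197 to 0.308, and the overall sign rests on the labels.

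Each array was centred on its median. All probes were fitted by generalised least squares in R 4.3.3, with code written for this purpose, 1 coefficient per comparison and a dye term. From limma 3.58.1 came the moderation of variances, and a limma p is the p of this moderated fit. Arrays sharing a mouse were given a covariance, mouse variance being estimated at 1.02 times array variance (restricted maximum likelihood on 142 complete probes). Probes with at least 1 residual degree of freedom were tested, with eBayes moderation of variances, Benjamini-Hochberg adjustment and a threshold of 0.05. The code was tested on simulated data. Arrays are counted in n, and some share mice. The p-values rest on the spread between these arrays, with the same ratio of mouse to array variance taken for all probes. The small number of arrays and mice limits the precision.

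A single symbol was annotated for 21020 probes and updated through RefSeq (GRCm38.p6) synonyms. All member probes are described; in other lists, up to 3 probes per comparison of smallest p, listed on all 3 arrays with one sign; for likeness, the 3 highest correlations. Further values named for contrast (Gabra3, Gabrg1, Abat, Slc32a1, the other ages of Gabrd and Gabbr1) were chosen after seeing them. Members and lists were chosen with earlier results of these data known. Abundant transcripts are genes of respiratory chain, ribosome, proteasome and glycolysis. Alternatives covered centring, scaling, missing values, covariance, dye, slide number, replicate block, reading of the ratio and leaving out arrays.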

Additional observations from a re-analysis of the deposited data

How the results depend on the processing

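limma called 0 probes in all 4 contrasts under every alternative run, including each array left out in turn. The ratios of Gabra5, Gabrb1 and Gabrb2 mMR031112 for 3xTG over WT at 3 and at 12 months kept their sign in every alternative that could be fitted on the test-over-reference reading, with adjusted p from 0.191 to 0.910, and that of Gabra5 at 3 months ran from 2.18 to 4.37. Read as Cy5 over Cy3, they were closer to 0, at 2.43, 1.52 and 0.51 at 3 months and at 0.92, 0.24 and 0.20 at 12 months, so their size rests on that reading. The median of the members moved by more than the spread between array medians as follows. In WT ageing it was 1.61 without centring, 0.34 relative to abundant transcripts, -1.15 with missing values set to 0 and 0.44 with ratios read as Cy5 over Cy3. At 3 months it was 2.19 without centring, 3.21 with a filter on missing values, 0.02 with missing values set to 0 and 0.07 read as Cy5 over Cy3. At 12 months it was 0.99 without centring, 0.50 relative to abundant transcripts, 2.82 with the filter and -0.42 read as Cy5 over Cy3. The filter left only 2 member probes, Gabra5 and Gabrb1, so its medians describe these alone. Over all probes left by the filter the median was 0.13 at 3 months and 0.60 at 12 months. In all these settings the median of the members is a description. With each array left out in turn it ran from -0.61 to -0.36 in WT ageing, from 1.35 to 2.38 at 3 months (2.38 without array 1) and from 1.82 to 2.31 at 12 months.

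Some fitted ratios changed sign, and the cause was not tested. In WT ageing read as Cy5 over Cy3, Gabra5 was at -0.65, Gad1 at 2.32, and mMC006692, mMC022825 and mMR031112 at -2.83, 2.66 and 8.16. In that reading mMC006692 was at 0.82 at 3 months and Gad1 at 1.08 at 12 months. For 12 minus 3 months these Gabrb2 probes were at -1.44, -0.30 and -0.31 in the same order. With test over reference the changes were as follows. In WT ageing Gabra5 was at -0.02 scaled, -0.34 with missing values set to 0, -0.04 without a dye term, -0.08 with a slide term and -0.14 with a replicate block, and Gabrb1 at -0.46 with missing values set to 0, -0.52 without dye, -0.01 with slide and -0.56 with the replicate block. With arrays left out in turn they ran from -1.68 (without array 3 of WT ageing) to 2.13 and from -0.15 to 0.98. Gabrb2 mMC022825 was at 1.38 without centring and 0.78 relative to abundant transcripts, and Gad1, otherwise -1.59, at 0.24 without centring. Gabrb2 mMC006692 ran from -0.71 (without array 2 of WT ageing) to 2.36. For 3xTG over WT at 12 months mMC006692 ran from -3.50 without array 3 to 1.32 without array 1, and Gad1, otherwise -2.84, was at 0.49 with missing values set to 0. For 12 minus 3 months Gabra5 was at 0.14 scaled and ran from -1.14 to 0.83 with arrays left out, Gabrb1 at 0.15 scaled and from -1.04 to 0.33, mMC006692 at -0.19 relative to abundant transcripts, and mMC022825 at -1.27 without centring and -1.89 relative to abundant transcripts. Experiment numbers do not mark shared mice throughout: deviations of same-numbered arrays correlated at -0.064 to 0.168, and the replicate block changed no call. With it Gabra5 was at 3.56 and Gabrb1 at 3.17 at 3 months.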
